A study of Mus musculus with 9 samples.

Results

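The interleukin-1 and interleukin-36 family was followed as 10 genes in RNA-seq libraries of mouse ear. The genes were chosen by name, as Il1a, Il1b, Il1rn, Il1f10, Il18, Il1r1, Il36a, Il36b, Il36g and Il36rn, with the last 4 also found under their older symbols Il1f6, Il1f8, Il1f9 and Il1f5. All 10 were found among the 55401 features of the deposited gene table, and all 10 passed the expression filter that left 21925 genes for testing.

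The ears came from C57 mice and gave 9 libraries in 3 groups of 3. The first group received MC903 and paeonol at 200 mg/kg, the second MC903 without paeonol, and the control group absolute ethyl alcohol. MC903 (calcipotriol) is an analogue of vitamin D that, applied to mouse skin, gives a common model of atopic dermatitis, and paeonol is a phenol from peony. The labels give no age or sex, and no route, duration or vehicle for paeonol. Nor do they say that each library is a separate animal. All p-values here therefore rest on the spread among these libraries alone, and that spread may be technical.

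Family members are signalling proteins, decoys and antagonists that share a fold or a receptor system. Interleukin-1α and interleukin-1β bind the receptor encoded by Il1r1 and recruit the shared accessory chain Il1rap, while the product of Il1rn occupies the receptor without signalling. The 3 interleukin-36 agonists, encoded by Il36a, Il36b and Il36g, act through Il1rl2 and the same accessory chain, and the product of Il36rn blocks that receptor. In skin, keratinocytes are a main source of interleukin-1α, interleukin-18 and the interleukin-36 proteins, whereas interleukin-1β is made largely by myeloid cells. Interleukin-1β and interleukin-18 are made as inactive precursors that proteases such as caspase-1 cut, so messenger RNA does not measure active protein. In these bulk libraries, fewer cells of a type and less RNA per cell cannot be told apart.

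On GRCm38, 6 of the genes lie together on the plus strand of chromosome 2, within 198 kb. Their order is Il36b (24153161 to 24160519), Il36g (24186476 to 24193568), Il36a (24215418 to 24225702), Il36rn (24276954 to 24283426), Il1f10 (24291196 to 24293820) and Il1rn (24336853 to 24351494). The annotation holds 10 genes in this span, of which only these 6 are protein-coding. Il1a (129299610 to 129309972) and Il1b (129364570 to 129371139) lie on the minus strand of the same chromosome. Il18 lies on chromosome 9 (50554827 to 50581840) and Il1r1 on chromosome 1 (40225080 to 40317257).

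Promoters of 9 of the 10 genes were matched to RefSeq on GRCm38.p6, in 13 windows of the 250 bases before a RefSeq start site. Il36a had no entry. Of the sequences below, Il1b and Il1f10 are shown because their messenger RNAs moved in opposite directions in MC903 against control and in MC903 with paeonol against MC903. Il1a is shown beside Il1b as its neighbour, and Il36b as the first gene of the cluster. Capitals mark the letters TATAAA on the gene's strand (a TATA box) and TGANTCA on either strand (the AP-1 consensus).
Il1b, chr2:129371140-129371389, minus strand: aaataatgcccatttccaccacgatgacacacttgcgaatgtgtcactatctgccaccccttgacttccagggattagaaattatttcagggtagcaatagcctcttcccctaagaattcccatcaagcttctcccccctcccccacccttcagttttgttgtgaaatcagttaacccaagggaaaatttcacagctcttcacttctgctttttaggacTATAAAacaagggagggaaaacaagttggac
Il1a, chr2:129309973-129310222, minus strand: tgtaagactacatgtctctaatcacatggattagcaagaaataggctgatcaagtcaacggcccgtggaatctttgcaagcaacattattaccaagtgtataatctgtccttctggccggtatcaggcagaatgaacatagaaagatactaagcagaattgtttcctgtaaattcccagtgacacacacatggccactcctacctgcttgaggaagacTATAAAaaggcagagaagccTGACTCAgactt
Il36b, chr2:24152922-24153171, plus strand: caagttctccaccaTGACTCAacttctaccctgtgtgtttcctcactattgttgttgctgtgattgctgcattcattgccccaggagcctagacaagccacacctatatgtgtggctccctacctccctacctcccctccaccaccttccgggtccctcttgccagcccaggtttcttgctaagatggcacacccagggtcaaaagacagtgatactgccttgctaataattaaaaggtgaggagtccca
Il1f10, chr2:24290946-24291195, plus strand: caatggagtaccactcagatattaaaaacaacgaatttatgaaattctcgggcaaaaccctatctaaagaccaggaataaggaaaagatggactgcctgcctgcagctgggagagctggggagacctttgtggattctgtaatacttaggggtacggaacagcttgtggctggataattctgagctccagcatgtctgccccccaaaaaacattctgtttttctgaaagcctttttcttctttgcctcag

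Il1b and Il1a each held TATAAA, with its first base at position -31 and -32 from the start site. Il1a also held TGACTCA at -12, Il36b held it at -236, and a promoter of Il1rn held TGAGTCA at -141. Among all 32851 promoters of this length, 7.59% held TATAAA and 6.75% held TGANTCA. Of the 13 family windows, 2 held TATAAA and 3 held TGANTCA. The C/EBP letters TTGCNNAA were in 2 of the 13 windows (Il1r1 and Il36rn) and in 9.56% of all promoters, and the NF-kB consensus in 1 window (a second start of Il1r1) and in 3.9%. The Il1f10 window held none of these letters, which says nothing of the factors that bind there.

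Changes were tested with edgeR's quasi-likelihood test over the 9 libraries together. Genes with an adjusted p under 0.05 (Benjamini-Hochberg, over all 21925) are spoken of as called. Levels are CPM, estimated counts relative to the TMM-adjusted library size in M, and changes are log2 ratios with the standard error (SE) of the fit. Library totals were 54.26 to 57.75 M. Epidermal keratin was plentiful in every group: Krt5 averaged 7580 ± 124 CPM in MC903 with paeonol, 5590 ± 140 CPM in MC903 and 6410 ± 372 CPM in control (SD, n = 3 each).

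**Figure D1:**
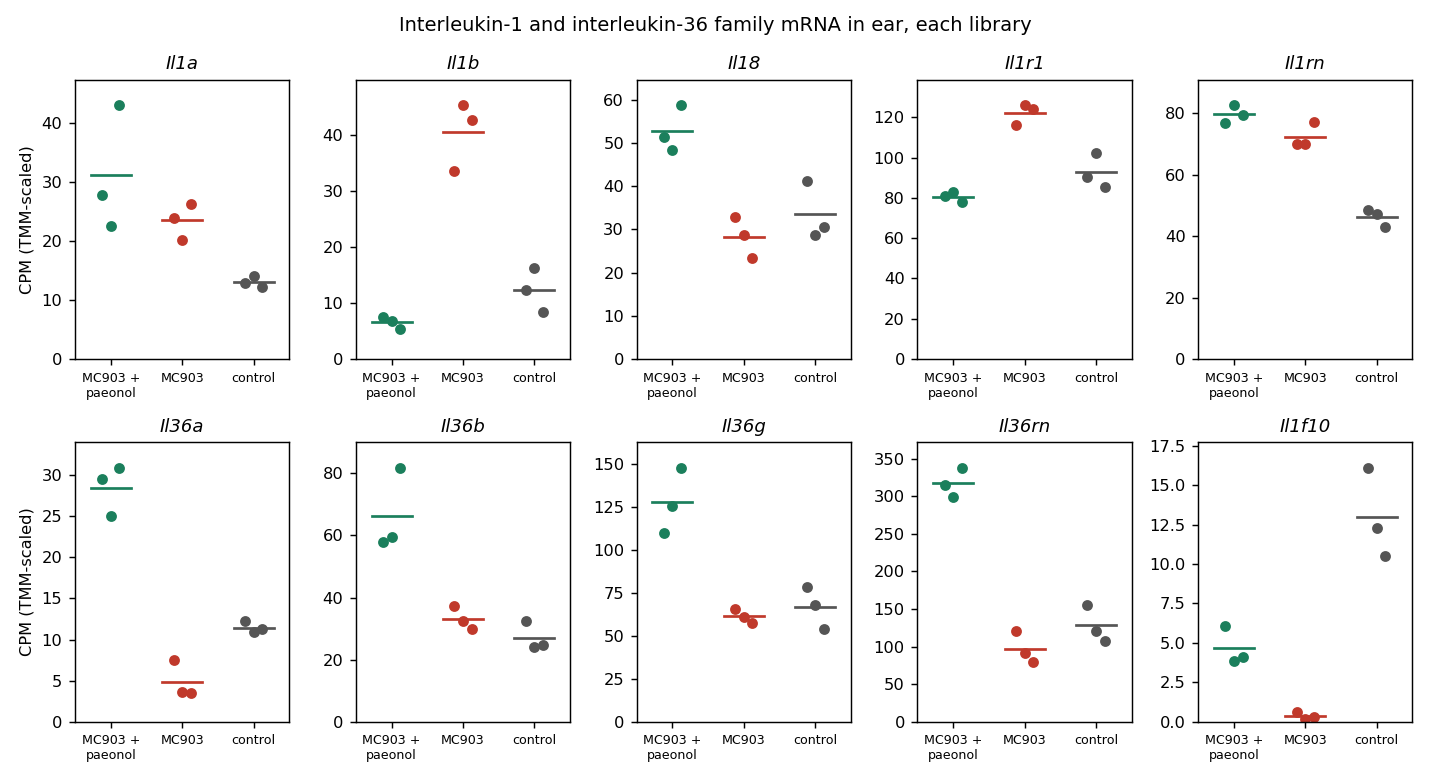
Level of each of the 10 genes in every library, in CPM on linear axes that start at 0. Points are single libraries, lines are the means of 3 libraries, and Il1b is high in the 3 MC903 libraries while Il1f10 is close to 0 there.

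In MC903 against control, the interleukin-1 agonists, their antagonist and their receptor were higher, and 2 other genes of the chromosome 2 cluster were lower. Il1a, Il1b, their antagonist Il1rn and their receptor Il1r1 rose, and Il36a and Il1f10 fell. Of the 10 genes, 6 were called, 4 higher and 2 lower, where 46.8% of all genes tested were called, 23.0% higher and 23.8% lower. The libraries of the 2 groups did not overlap for 6 of the 10 genes, against 58.1% of all genes. The median log2 change of the 10 genes was 0.085, and that of all genes -0.0155.

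Il1b, the myeloid agonist, measured 33.6, 45.3 and 42.6 CPM in MC903 and 12.4, 16.2 and 8.37 CPM in control. Every MC903 library lay above every control library. Il1b rose by 1.72 ± 0.23 on the log2 scale (edgeR adjusted p = 0.000175).

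Il1a, which encodes an agonist that is active as its precursor, measured 23.9, 20.2 and 26.3 CPM in MC903 and 12.8, 14.1 and 12.2 CPM in control. The groups did not overlap, and the change was smaller than that of Il1b, at 0.85 ± 0.21 on the log2 scale (edgeR adjusted p = 0.00784). The antagonist Il1rn measured 70.0, 70.0 and 77.1 CPM in MC903 against 48.6, 47.3 and 43.0 CPM in control. Its libraries were tight within each group, and its log2 change of 0.65 ± 0.07 had an edgeR adjusted p of 1.77e-05.

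Il1r1, the signalling receptor, measured 116, 126 and 124 CPM in MC903 and 90.1, 102 and 85.6 CPM in control. All MC903 libraries were above all control libraries, with a log2 change of 0.39 ± 0.07 (edgeR adjusted p = 0.000936).

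Il1f10, which encodes the family member interleukin-38, moved furthest of the 10 in MC903. Its estimated counts were 30, 11 and 16 in MC903 and 1009, 747 and 623 in control, or 0.587, 0.203 and 0.29 CPM in MC903 and 16.1, 12.3 and 10.5 CPM in control. The MC903 libraries thus lay near the lower limit of measurement and far from the controls. The fitted log2 change was -5.17 ± 0.37 (edgeR adjusted p = 1.37e-06). From summed counts, MC903 was 37.4-fold lower than control, with a 95% exact interval of 22.1 to 68.8 that covers counting error only and takes 4 counts as 1 fragment.

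Il36a, an interleukin-36 agonist, measured 7.48, 3.64 and 3.45 CPM in MC903 and 12.2, 10.9 and 11.3 CPM in control. Replicate 1 of MC903 stood above the other two but below every control. Il36a fell by 1.24 ± 0.26 on the log2 scale (edgeR adjusted p = 0.00293).

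The other agonists and the interleukin-36 antagonist overlapped between MC903 and control and were not called. Their log2 changes were 0.30 ± 0.16 for Il36b, -0.13 ± 0.14 for Il36g, -0.24 ± 0.16 for Il18 and -0.40 ± 0.17 for Il36rn, with edgeR adjusted p-values of 0.158, 0.503, 0.244 and 0.0908. The value for Il36rn lay close to the threshold. It was called lower with DESeq2 (adjusted p = 0.0307), and without control replicate 3 or MC903 replicate 1 in edgeR (adjusted p = 0.0459 and 0.0101). Il36b was called higher without control replicate 1 (edgeR adjusted p = 0.0395), and Il36g changed sign without it (log2 change 0.00515).

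**Figure D2:**
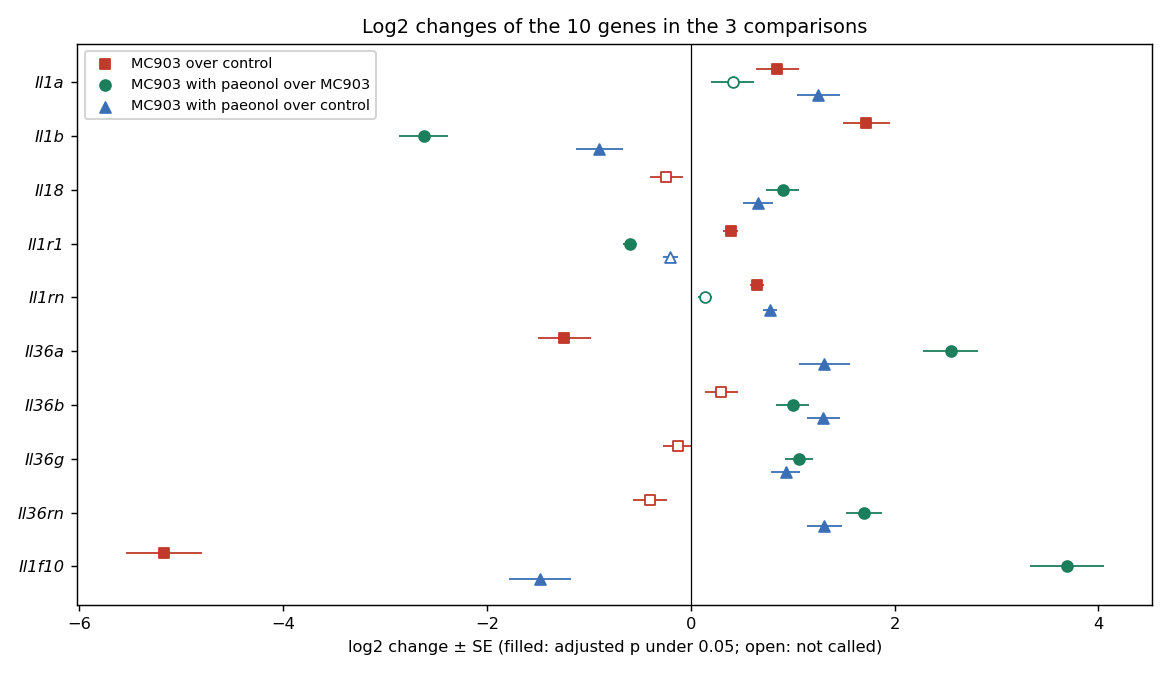
Log2 change ± SE of each gene in the 3 comparisons, with the group named first divided by the second. Filled symbols passed an edgeR adjusted p under 0.05, and the widest span is that of Il1f10, from -5.17 in MC903 over control to 3.69 in MC903 with paeonol over MC903.

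In MC903 with paeonol against MC903, the interleukin-36 agonists, Il18 and 2 of the 3 antagonist-like genes were higher, and Il1b and Il1r1 lower. Il18, Il36a, Il36b, Il36g, Il36rn and Il1f10 rose, whereas Il1a and Il1rn were not called. Relative to Krt10, a keratin that was itself higher with paeonol, 5 of the 6 had the opposite sign, as given beside the epidermal markers. Of the 10 genes, 8 were called, 6 higher and 2 lower, where 29.7% of all genes tested were called, 15.3% higher and 14.3% lower. The groups did not overlap for 8 of the 10 genes, against 43.9% of all genes. The median log2 change of the 10 genes was 0.95, and that of all genes 0.0024. This comparison and the one above share the MC903 libraries, so an unusual value in those libraries enters both with opposite sign.

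Il1b measured 7.51, 6.86 and 5.41 CPM in MC903 with paeonol, against 33.6, 45.3 and 42.6 CPM in MC903. The highest paeonol library was far below the lowest MC903 library. Il1b fell by 2.62 ± 0.24 on the log2 scale, with an edgeR adjusted p of 4.62e-05. Il1r1 measured 80.9, 83.0 and 77.7 CPM in MC903 with paeonol, and fell by 0.60 ± 0.07 on the log2 scale relative to MC903 (edgeR adjusted p = 0.000132), without overlap.

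All 3 interleukin-36 agonists were higher with paeonol, and Il36a differed most. Il36a measured 29.5, 25.0 and 30.9 CPM in MC903 with paeonol and 7.48, 3.64 and 3.45 CPM in MC903, a log2 change of 2.55 ± 0.27 (edgeR adjusted p = 0.000101). Il36b measured 58, 59.5 and 81.8 CPM in MC903 with paeonol and 37.4, 32.4 and 29.9 CPM in MC903, a log2 change of 1.00 ± 0.16 (edgeR adjusted p = 0.00113). Replicate 3 of the paeonol group was the highest library of that group for all 3 agonists, Il36rn, Il18 and Il1a. Il36g, known as a marker of inflamed epidermis in human psoriasis, measured 110, 126 and 148 CPM in MC903 with paeonol and 65.9, 60.9 and 57.3 CPM in MC903. Its log2 change was 1.06 ± 0.14 (edgeR adjusted p = 0.000463), and the groups of each agonist stayed apart.

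The antagonist Il36rn rose beside its agonists. It measured 315, 299 and 338 CPM in MC903 with paeonol and 121, 91.4 and 79.9 CPM in MC903, a log2 change of 1.70 ± 0.18 (edgeR adjusted p = 0.000168). Il1f10 had 342, 207 and 213 estimated counts in MC903 with paeonol, against 30, 11 and 16 in MC903. From summed counts, MC903 with paeonol was 13.3 times MC903, with a 95% exact counting interval of 7.76 to 24.9, and the fitted log2 change was 3.69 ± 0.36 (edgeR adjusted p = 3.26e-05).

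Il18, whose product is a caspase-1 substrate that induces interferon-γ, measured 51.5, 48.4 and 58.8 CPM in MC903 with paeonol and 32.8, 28.8 and 23.5 CPM in MC903. The groups did not overlap, and the log2 change was 0.90 ± 0.16 (edgeR adjusted p = 0.00166). Il1a measured 27.8, 22.5 and 43.0 CPM in MC903 with paeonol and 23.9, 20.2 and 26.3 CPM in MC903, with overlapping groups and a log2 change of 0.41 ± 0.21 (edgeR adjusted p = 0.181). It was called higher when paeonol replicate 2, its lowest library in that group, was left out (log2 change 0.59, edgeR adjusted p = 0.0365). Il1rn measured 76.8, 82.6 and 79.5 CPM in MC903 with paeonol, with a log2 change from MC903 of 0.14 ± 0.07 (edgeR adjusted p = 0.162).

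Against control, MC903 with paeonol had higher levels of most agonists and of 2 antagonists, and lower Il1b and Il1f10. Of the 10 genes, 9 were called, 7 higher and 2 lower, where 30.9% of all genes tested were called, 16.3% higher and 14.5% lower. All 10 genes had groups without overlap, against 46.4% of all genes, and their median log2 change was 0.855, against -0.0347 over all genes. The control libraries are those of the first comparison.

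Il1b was lower in the paeonol group than in control, at 6.59 ± 1.08 CPM and 12.3 ± 3.92 CPM (SD, n = 3 each). Its log2 change of -0.90 ± 0.23 had an edgeR adjusted p of 0.0147, and the call ended without paeonol replicate 3 (log2 change -0.78, adjusted p = 0.0632). Il1f10 averaged 4.65 ± 1.21 CPM in MC903 with paeonol and 13.0 ± 2.88 CPM in control, a log2 change of -1.48 ± 0.30 (edgeR adjusted p = 0.00323).

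The interleukin-36 genes had log2 changes from control of 1.31 ± 0.25 (Il36a), 1.3 ± 0.16 (Il36b), 0.93 ± 0.14 (Il36g) and 1.31 ± 0.17 (Il36rn), with edgeR adjusted p-values from 0.000315 to 0.00354. Il1a rose by 1.25 ± 0.21, Il1rn by 0.78 ± 0.07 and Il18 by 0.66 ± 0.15 on the same scale, with edgeR adjusted p-values of 0.00173, 3.11e-05 and 0.00891. Il1r1 was at 80.5 ± 2.70 CPM in MC903 with paeonol and 92.7 ± 8.74 CPM in control, and was not called (log2 change -0.20 ± 0.07, edgeR adjusted p = 0.0549) although the libraries did not overlap. It was called lower without control replicate 3 (log2 change -0.26, edgeR adjusted p = 0.0345). With counts divided by 4 it was also called lower (log2 change -0.206, edgeR adjusted p = 0.0433).

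Per kilobase of merged exons, Il36g had the highest mean of the 10 genes in every group, at 77.5 ± 11.7 CPM per kb in MC903 with paeonol, 37.2 ± 2.62 in MC903 and 40.6 ± 7.47 in control (SD, n = 3 each). In MC903 with paeonol the next were Il36rn (70.7 ± 4.36 CPM per kb), Il36b (54.6 ± 10.9) and Il18 (51.3 ± 5.17), and each overlapped its neighbour in the order. Il36a (32.2 ± 3.51 CPM per kb) stood apart from its neighbours on either side, and below it came Il1a, Il1rn, Il1r1, Il1f10 and, at 3.46 ± 0.564 CPM per kb, Il1b.

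In MC903, Il36g stood clear of the rest, and Il18, Il36b, Il36rn, Il1b and Il1r1 followed within 27.5 to 19.1 CPM per kb, each overlapping the next. Il1f10 was last there, at 0.67 ± 0.374 CPM per kb. In control, Il1f10 was the fourth, at 24.1 ± 5.35 CPM per kb, overlapping Il36rn (28.6 ± 5.60) above and Il36b (22.2 ± 3.85) below, and Il1b was the last, at 6.45 ± 2.06, overlapping Il1a (6.61 ± 0.482).

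**Figure D3:**
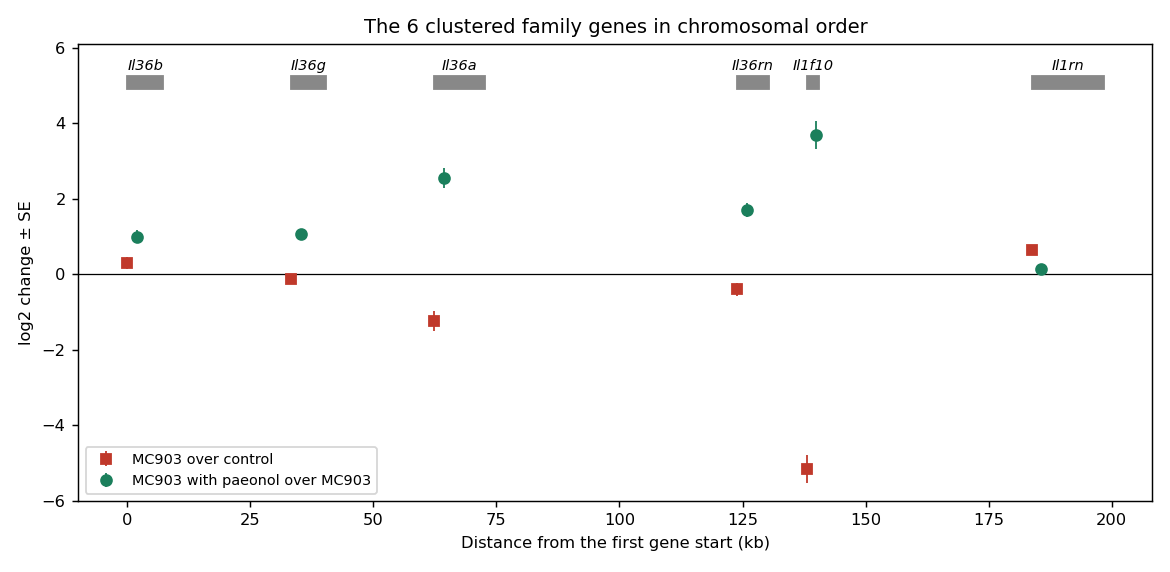
Log2 change ± SE of the 6 clustered genes along chromosome 2, by distance in kb from the start of Il36b. Grey bars are the gene spans, red squares stand at gene starts with green circles set slightly to the right for legibility, and Il1f10 has the largest change of the 6 in both comparisons (-5.17 and 3.69).

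Along the cluster, some neighbours had like changes and others did not. Il36rn and Il1f10 start 123.8 and 138.0 kb from the start of Il36b, and in MC903 against control their log2 changes were -0.40 and -5.17. Il1rn, at 183.7 kb, had 0.65 in the same comparison. In MC903 with paeonol against MC903, the values from Il36b to Il1rn were 1.00, 1.06, 2.55, 1.70, 3.69 and 0.14.

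Ratios of each cytokine to its inhibitor within a library do not depend on how libraries are scaled. The 7 ratios were formed from estimated counts with 4 added to each, compared over the 3 groups by an exact permutation test whose smallest p is 0.00357, and adjusted over the 7. By this test 6 of the 7 ratios differed among the groups, and 3 did when MC903 replicate 3 was left out. The pairwise exact permutation test of 3 against 3 libraries cannot go below 0.10, so differences between pairs of groups are given as sizes and by whether the libraries overlap. The 3 ratios over Il36rn share a denominator and are not independent.

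The Il1b to Il1rn ratio spread most widely. It was 0.0985, 0.0839 and 0.0689 in MC903 with paeonol, 0.48, 0.647 and 0.553 in MC903 and 0.255, 0.344 and 0.196 in control. The 3 groups did not overlap anywhere. The log2 difference was -2.75 for MC903 with paeonol minus MC903 and 1.11 for MC903 minus control (exact permutation p = 0.00357 over the 3 groups, adjusted p = 0.0167).

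Of the Il1a to Il1rn ratio, the geometric means were 0.377 in MC903 with paeonol, 0.323 in MC903 and 0.283 in control, with overlap between every pair of groups (exact permutation p = 0.261, adjusted p = 0.261). Without paeonol replicate 2 the adjusted p was 0.0167, and without paeonol replicate 3 the log2 difference between MC903 with paeonol and MC903 changed sign, to -0.0397.

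The 3 interleukin-36 agonists did not keep the same relation to their shared antagonist. The Il36a to Il36rn ratio had a geometric mean of 0.0895 in MC903 with paeonol, 0.0481 in MC903 and 0.0908 in control, so it was lowest in MC903 (exact permutation p = 0.0357, adjusted p = 0.0417). The Il36b to Il36rn ratio was highest in MC903, at 0.207 with paeonol, 0.345 in MC903 and 0.212 in control (exact permutation p = 0.0321, adjusted p = 0.0417). For both ratios the MC903 libraries lay apart from all others, and the paeonol and control libraries overlapped. The Il36g to Il36rn ratio was 0.40 with paeonol, 0.638 in MC903 and 0.522 in control (exact permutation p = 0.00714, adjusted p = 0.0167), with every paeonol library below every other library.

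The call for Il36a over Il36rn ended without any of control replicates 2 and 3, MC903 replicate 3 and paeonol replicates 1 and 3 (adjusted p = 0.05 to 0.0708). That for Il36b over Il36rn ended without MC903 replicate 3, at an adjusted p of 0.05 by the exact permutation test.

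Il18 over Il18bp, which encodes the secreted interleukin-18 binding protein, was 6.68, 8.24 and 11.3 in MC903 with paeonol, 3.1, 3.09 and 1.78 in MC903 and 6.61, 2.95 and 3.16 in control. The paeonol libraries lay above the others, narrowly so above control replicate 1 (exact permutation p = 0.025, adjusted p = 0.0417). This call ended without MC903 replicate 3 or any 1 of the paeonol libraries (adjusted p = 0.0607 to 0.075).

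The signalling receptor Il1r1 over the decoy receptor Il1r2 was 1.03, 1.28 and 1.19 in MC903 with paeonol, 2.07, 2.34 and 2.14 in MC903 and 0.804, 1.08 and 0.878 in control. MC903 stood apart from both other groups, by a log2 difference of 1.26 from control, and the paeonol minus MC903 difference was -0.91 (exact permutation p = 0.00714, adjusted p = 0.0167).

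**Figure D4:**
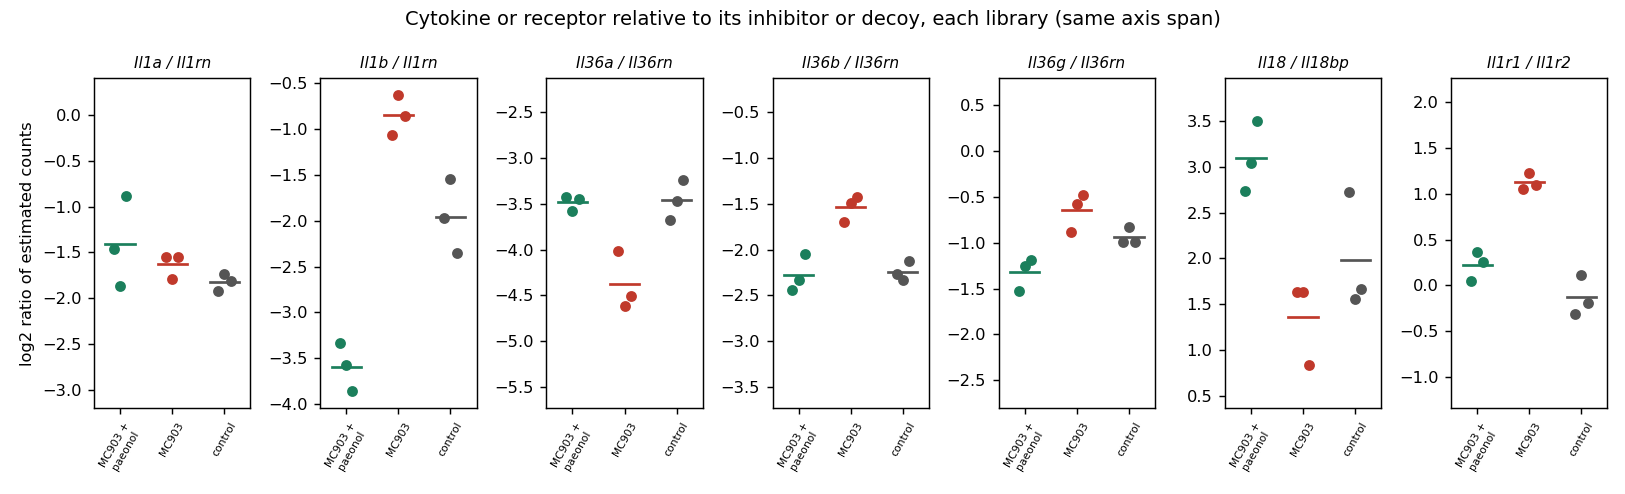
Log2 ratio of the estimated counts of 2 genes in each library, for 7 ratios; every panel spans the same number of log2 units, and lines are means of 3 libraries. The Il1b to Il1rn panel has the widest spread, with group means of -3.59 in MC903 with paeonol, -0.85 in MC903 and -1.95 in control.

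The receptor genes were in part higher in MC903 and in part lower with paeonol. Of 7 tested of 8 listed, Il1r1 among them, 4 were higher in MC903 than in control and 3 were not called, and 4 were lower in MC903 with paeonol than in MC903 and 3 not called. The list's median log2 changes were 0.39 and -0.94, against -0.0155 and 0.0024 over all genes tested. Beside this and the gene lists below, 46.8% of all genes were called in MC903 against control. With paeonol, 29.7% of all genes were called against MC903 and 30.9% against control. Il1rl2, the interleukin-36 receptor, averaged 140 ± 6.48 CPM in MC903 with paeonol, 151 ± 13.2 CPM in MC903 and 107 ± 7.48 CPM in control (SD, n = 3 each). Its log2 change was 0.49 ± 0.08 in MC903 against control (edgeR adjusted p = 0.000298) and -0.11 ± 0.08 in MC903 with paeonol against MC903 (adjusted p = 0.334). Il1rl1, the interleukin-33 receptor, rose by 1.09 ± 0.20 in MC903 against control and fell by 0.95 ± 0.20 with paeonol against MC903, and Il18rap, an interleukin-18 receptor chain, fell by 1.93 ± 0.26 with paeonol against MC903 (edgeR adjusted p-values 0.000748, 0.00361 and 0.000245). The accessory chain Il1rap averaged 40.6 ± 1.70 CPM in MC903 with paeonol, 43.7 ± 3.88 CPM in MC903 and 41.7 ± 2.40 CPM in control and was not called in any comparison.

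Among 10 genes that restrain the pathway, 5 were higher and 3 lower in MC903 than in control. Sigirr, which encodes a receptor that inhibits interleukin-1 signalling, averaged 7.61 ± 0.765 CPM in MC903 and 28.8 ± 1.43 CPM in control, a log2 change of -1.92 ± 0.11 (edgeR adjusted p = 4.23e-07). The decoy Il1r2 fell by 0.86 ± 0.09 (edgeR adjusted p = 1.24e-05). In the other direction, Nfkbia, which encodes the NF-kB inhibitor IκBα, rose by 1.17 ± 0.14, Irak3, an inhibitory kinase-like protein, by 0.75 ± 0.11 and Zc3h12a, a nuclease that degrades cytokine transcripts, by 0.61 ± 0.15 (edgeR adjusted p = 6.14e-05, 0.000188 and 0.00907).

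In MC903 with paeonol against MC903, 5 of these 10 were higher and 3 lower. Sigirr rose by 1.08 ± 0.11 (edgeR adjusted p = 3.91e-05) and Tollip, an adaptor that dampens signalling, by 0.32 ± 0.07 (adjusted p = 0.00506). Il1r2 rose by 0.32 ± 0.09 (edgeR adjusted p = 0.0181), a call that ended without MC903 replicate 2 (0.0662) or paeonol replicate 1 (0.0683). Nfkbia fell by 0.70 ± 0.13 and Il18bp by 0.83 ± 0.22 (edgeR adjusted p = 0.00322 and 0.0138), and the call of Il18bp ended without MC903 replicate 3 (0.0629) or paeonol replicate 2 (0.0537). Without MC903 replicates 1 or 3, or paeonol replicates 1 or 3, 3 of the 10 were called higher, and without MC903 replicate 3 or paeonol replicate 2, 1 was called lower.

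Of 18 adaptor and kinase genes, 10 were higher and 2 lower in MC903 than in control, a split that became 5 higher and 6 lower when libraries were scaled by their totals alone. Irak4, a receptor-proximal kinase, rose by 0.82 ± 0.10 and Traf6, the ubiquitin ligase downstream of it, by 0.60 ± 0.06 (edgeR adjusted p = 4.45e-05 and 1.53e-05). Tab2, which links ubiquitin chains to the kinase TAK1, fell by 0.43 ± 0.06 in MC903 against control and rose by 0.57 ± 0.06 in MC903 with paeonol against MC903 (edgeR adjusted p = 0.000134 and 5.45e-05). With paeonol against MC903, 2 of the 18 were higher and 3 lower, a share near the 29.7% of all genes called. Only 1 was higher without MC903 replicate 2 or paeonol replicate 2.

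Of 25 genes of inflammasomes and precursor processing tested (26 listed), 10 were higher and 5 lower in MC903 than in control, and 6 higher and 9 lower in MC903 with paeonol than in MC903. Nlrp3, the sensor that activates caspase-1 in myeloid cells, averaged 1.69 ± 0.29 CPM in MC903 with paeonol, 7.70 ± 0.572 CPM in MC903 and 2.82 ± 0.349 CPM in control. Its log2 changes were 1.45 ± 0.20 in MC903 against control and -2.18 ± 0.20 with paeonol against MC903 (edgeR adjusted p = 9.33e-05 and 2.25e-05). The adaptor gene Pycard (ASC) rose by 0.78 ± 0.12 in MC903 with paeonol against MC903 (edgeR adjusted p = 0.000545), while Ctss, a lysosomal protease, fell by 1.32 ± 0.16 and Mmp9, a secreted protease, by 3.71 ± 0.43 (edgeR adjusted p = 0.000379 and 0.000616). Gsdmc, a gasdermin, rose by 2.46 ± 0.21 in MC903 against control (edgeR adjusted p = 2.48e-05), but has near-identical paralogs in mouse, so its reads may be divided among them.

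Keratinocyte genes that interleukin-1 and interleukin-36 are known to induce were mostly higher in MC903, and about as many were lower with paeonol as were not called. Of 25, 15 were higher and 1 lower in MC903 than in control, with a median log2 change of 1.67. In MC903 with paeonol against MC903, 1 was higher, 12 lower and 12 not called, with a median of -1.3, and 8 were lower when any 1 paeonol library was left out. Against control, MC903 with paeonol had 8 higher and 1 lower, with a median of 0.60, and 13 higher without control replicate 2. These genes also respond to other stimuli, so their changes do not measure the activity of the family.

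Cxcl2, a neutrophil chemoattractant, averaged 3.52 ± 0.711 CPM in MC903 with paeonol against 43.8 ± 10.8 CPM in MC903, and fell by 3.64 ± 0.34 on the log2 scale (edgeR adjusted p = 0.000107). Ptgs2, the inducible cyclooxygenase, averaged 14.0 ± 5.60 CPM in MC903 with paeonol, 87.6 ± 6.58 CPM in MC903 and 4.12 ± 0.984 CPM in control. It rose by 4.41 ± 0.30 in MC903 against control and fell by 2.65 ± 0.27 with paeonol against MC903 (edgeR adjusted p = 9.26e-06 and 0.000232). Defb14, an antimicrobial β-defensin, rose by 4.24 ± 0.28 and fell by 1.91 ± 0.25 in these comparisons (edgeR adjusted p = 4.03e-06 and 0.00051). Tslp averaged 363 ± 136 CPM in MC903 with paeonol and 6.37 ± 0.599 CPM in control, a log2 change of 5.83 ± 0.42 (edgeR adjusted p = 0.000137). Vnn3, a low gene, rose by 0.98 ± 0.30 with paeonol against MC903 (edgeR adjusted p = 0.0299). Its call ended without MC903 replicate 1 (0.0502), 2 (0.0849) or 3 (0.0754), and without paeonol replicate 2 (0.0859) or 3 (0.0757). The call also ended when genes were not filtered by expression (0.0522).

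Nearest patterns were sought among tested genes outside the family with an official (not predicted) symbol and a mean log2 CPM of 2 or more. Those whose centred log2 CPM followed Il1b most closely over the 9 libraries were C3, Clec4d, Serpina3n, Cd14 and Srgn, with root mean square differences of 0.209 to 0.267. Nearest to Il1f10 were Serpinb6d, Ces1d, Flg2, Tmem229a and Acoxl, at 0.418 to 0.515, and nearest to Il36g were Cysrt1, Sdcbp2, Acpp, Dnase1l3 and Hopx, at 0.104 to 0.149. The spread of the 3 genes themselves was 1.12, 2.19 and 0.501 on the same scale. Within the family, the closest pair was Il18 and Il36g (0.18) and the most distant Il1b and Il1f10 (3.15).

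Cell type markers also differed between the groups, and not every list moved as the family genes did. Of 12 monocyte and macrophage markers, 10 were higher and 1 lower in MC903 than in control, and 10 were lower in MC903 with paeonol than in MC903 and 2 not called. Their summed level was 541 to 861 CPM in MC903 with paeonol, 1690 to 1880 CPM in MC903 and 990 to 1090 CPM in control, so the groups stood in the same order as for Il1b. Relative to this sum within each library, the log2 difference in Il1b between MC903 with paeonol and MC903 was -1.27 (SD 0.16), without overlap, against -2.62 unadjusted.

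Of 12 epidermal markers, 10 were higher and 1 lower in MC903 with paeonol than in MC903, and 3 higher and 5 lower in MC903 than in control. Their sum was 49000 to 52300 CPM in MC903 with paeonol, 26600 to 34100 CPM in MC903 and 21100 to 25600 CPM in control. Krt10, a keratin of differentiated layers, averaged 16100 ± 2500 CPM in MC903 with paeonol, 2710 ± 1930 CPM in MC903 and 3050 ± 857 CPM in control (SD, n = 3 each). Krt1, another keratin of these layers, averaged 6170 ± 231 CPM, 4220 ± 1480 CPM and 1030 ± 42.3 CPM in the same order of groups. Levels relative to Krt1 were not computed, so those relative to Krt10 hold for Krt10 alone. Relative to the basal keratin Krt5 in the same library, the 6 genes that rose with paeonol against MC903 had smaller log2 differences than unadjusted: 0.46 against 0.90 for Il18, 0.55 against 1.00 for Il36b, 0.61 against 1.06 for Il36g, 1.28 against 1.70 for Il36rn, 2.20 against 2.55 for Il36a and 3.36 against 3.69 for Il1f10. Krt14, also a basal keratin, averaged 10000 ± 913 CPM in MC903 with paeonol, 13600 ± 468 CPM in MC903 and 5530 ± 271 CPM in control. Between MC903 and MC903 with paeonol, Krt14 thus moved opposite to Krt5, and levels relative to Krt14 were not computed.

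Relative to the summed epidermal markers, the differences were 0.16 for Il18, with overlapping groups, and 0.24 for Il36b, 0.31 for Il36g, 0.98 for Il36rn, 1.90 for Il36a and 3.06 for Il1f10, without overlap. Relative to Krt10, 5 of the 6 had the opposite sign, at -1.89 for Il18, -1.81 for Il36b, -1.75 for Il36g, -1.07 for Il36rn and -0.16 for Il36a, and Il1f10 had 1.01, where the groups overlapped for Il36a and Il1f10. These relative levels were chosen after the data were seen, and the part of cell composition in the changes was not otherwise tested.

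Of 9 markers of stressed keratinocytes, 7 were higher in MC903 than in control and 4 lower in MC903 with paeonol than in MC903. Krt6a, Krt16, S100a8 and S100a9 are in this list and in that of the keratinocyte targets above, so the lists are not independent. The 4 called lower with paeonol became 2 without MC903 replicate 1 or 2, or paeonol replicate 1 or 2. The list summed to 5570 to 10100 CPM in MC903 with paeonol, 21200 to 23100 CPM in MC903 and 678 to 1630 CPM in control. Of 8 neutrophil markers tested, 5 were higher in MC903 than in control, and 1 was higher and 4 lower in MC903 with paeonol than in MC903. Cxcr2, a chemokine receptor, averaged 18.3 ± 2.48 CPM in MC903 with paeonol, 10.4 ± 1.76 CPM in MC903 and 3.51 ± 1.39 CPM in control. Retnlg, also of the neutrophil list, was highest in MC903, at 0.129 ± 0.224 CPM, 2.33 ± 0.214 CPM and 0.138 ± 0.122 CPM in the same order of groups. The neutrophil list was low, at 23.7 to 28.1 CPM in MC903 with paeonol, 40.8 to 47.4 CPM in MC903 and at most 13.4 CPM in control for the 8 tested genes together. The defining neutrophil gene Ly6g had 0 counts in all paeonol libraries, 0 to 12 in MC903 and 0 to 5 in control. Langerhans and dendritic cell markers summed to 338 to 381 CPM in MC903 with paeonol, 255 to 321 CPM in MC903 and 537 to 614 CPM in control.

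**Figure D5:**
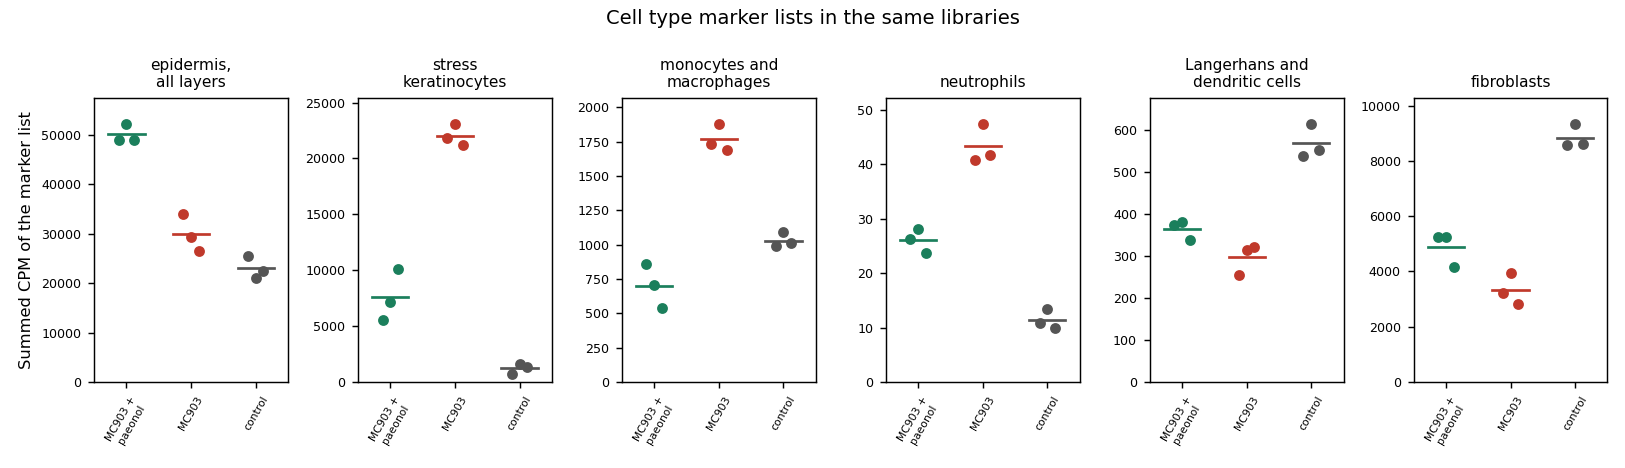
Summed CPM of 6 lists of cell type markers in each library, on linear axes that start at 0, with lines at the means of 3 libraries. Monocyte and macrophage markers are highest in MC903 (1690 to 1880 CPM) and epidermal markers highest in MC903 with paeonol (49000 to 52300 CPM).

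Some members overlap other annotated genes, and whether the counting used strand is not stated. The antisense gene Il1bos, opposite Il1b, held 40 to 135 estimated counts in MC903 with paeonol, 133 to 160 in MC903 and 89 to 153 in control, below the 282 to 425, 1717 to 2450 and 495 to 988 of Il1b. Gm14023, opposite Il1a, had 49 to 90 counts over all libraries, and Bco2, opposite Il18, 42 to 232. How reads were divided between these genes was not tested.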

How the data were processed

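The authors deposited whole-number estimated counts per gene, unscaled, taken here as such. The submitters' processing notes name the tools StringTie 1.3.4d, HISAT2 2.0.4 and cutadapt and the build GRCm38; their annotation and use of strand are not stated. Per the labels' protocols, RNA had an integrity number above 7.0, was selected with oligo(dT) and its second strand was marked with dUTP. Features with exactly 4 counts were 1.9 to 2.23 times as common as those with neighbouring counts, so counting intervals use counts divided by 4. Groups were read from the treatment label, replicate numbers from the title.

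Symbols came from GENCODE M21 (55141 of 55401 features). edgeR 4.0.16 (R 4.3.3) fitted all 9 libraries with TMM factors of 0.942 to 1.09, filterByExpr (minimum count 10) and a robust quasi-likelihood fit, two-sided. A further 0.0398% of counts lay in untested features. Each SE was obtained as the change divided by the square root of F. Log2 CPM used a prior count of 2. Within groups, pairs of replicates had a chi-square of 6.51 to 14.4 per degree of freedom, above sampling noise. Data for MC903 versus control (21265 genes) were simulated with 200 changed genes. Of those with a mean CPM of at least 5, 54.5%, 82.9% and 90.6% were recovered at 1.5-fold, 2-fold and 4-fold. Of 21070 unchanged genes, 0.0142% were called. In the data themselves 46.8% of genes were called, so these rates do not measure recovery or false calls there.

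The members and gene lists were chosen with earlier results of these data known. All members are named. List genes named come from the up to 3 called genes per direction and comparison with the smallest p, plus those of the ratios; Il1rap, chosen after its values were seen, is added. Nearest patterns are the 5 genes with the smallest root mean square difference, with predicted and clone-named genes left out. Alternatives were DESeq2 1.42.0, its size factors, other filters, fits of 2 groups, library totals, counts divided by 4, a replicate block and each library left out. Promoters are RefSeq (GRCm38.p6).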

Additional observations from a re-analysis of the deposited data

How the results depend on the processing

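Of 510 alternative values of the 30 member changes (17 settings), 496 kept direction and side of the threshold, 12 became called, 1 lost its call and 1 changed sign, for Il1b and Il36g. Under the replicate block, Il36rn was called in MC903 against control (edgeR adjusted p = 0.027) and Il1r1 in MC903 with paeonol against control (0.0404), and no other member call changed. Same-numbered libraries did not deviate together (r = -0.0113 to 0.04), so the numbers were not taken as pairs. With the replicate block, 0 of the 7 ratios were called by the exact permutation test; with each library left out, 3 to 6 were, and 3 without MC903 replicate 3. The smallest p of these tests differs, and the cause was not tested.

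Il1rap, not called, changed sign in MC903 against control under library totals (-0.123) and without MC903 replicate 1 (-0.00624), Il36g did so without control replicate 1, and the Il1a to Il1rn log2 ratio, paeonol minus MC903, without paeonol replicate 3. With each library left out in turn, these spanned -0.00624 to 0.114, -0.259 to 0.00515 and -0.0397 to 0.454.

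Under scaling by library totals, the median log2 change over all genes was -0.205 in MC903 against control (3402 higher, 7224 lower, against 5044 and 5215) and -0.197 in MC903 with paeonol against control (2155 higher, 5354 lower, against 3578 and 3187). Il18 and Il36rn were then called lower in MC903 than in control (edgeR adjusted p = 0.0351 and 0.0168), and Il1r1 in MC903 with paeonol than in control (0.0041). Counts of at most 30 limit Il1f10 in MC903, and groups of 3 limit every test. Relative to Krt10, added after the data were seen, the paeonol minus MC903 log2 difference was reversed for Il18 (-1.89), Il36b (-1.81), Il36g (-1.75), Il36rn (-1.07) and Il36a (-0.16).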

Other observations

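Marker lists of other ear tissues also differed between the groups. Sebaceous gland markers summed to 3150 to 4290 CPM in MC903 with paeonol, 601 to 1360 CPM in MC903 and 5640 to 7450 CPM in control. Fibroblast markers summed to 4150 to 5260 CPM in MC903 with paeonol, 2810 to 3930 CPM in MC903 and 8570 to 9340 CPM in control, and skeletal muscle markers to 2600 to 3320 CPM, 2280 to 2830 CPM and 4630 to 6820 CPM in the same order of groups. Mast cell and basophil markers summed to 88.5 to 134 CPM in MC903 with paeonol, 176 to 253 CPM in MC903 and 110 to 126 CPM in control. T cell markers summed to 55.3 to 69.4 CPM in MC903 with paeonol, 60.9 to 81.0 CPM in MC903 and 72.0 to 84.5 CPM in control, where the paeonol libraries lay below the control libraries and the MC903 libraries overlapped both. Hair follicle markers were low, at 16.0 to 47.6 CPM in MC903 with paeonol, 12.3 to 16.5 CPM in MC903 and 16.2 to 47.5 CPM in control.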
